A study of Mus musculus with 12 samples.

Results

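Enteroendocrine and tuft cells are rare chemosensory cells of the gut epithelium, and 10 genes that mark them were followed across the colon of mice of 4 genotypes. The genes were chosen by symbol: Gcg, Pyy, Insl5, Cck, Tph1, Chga and Chgb for enteroendocrine cells, and Dclk1, Trpm5 and Pou2f3 for tuft cells. Each of the 10 was measured by 1 probe set with that symbol alone, and they were tested among 22180 genes. Colon RNA was measured on 12 Affymetrix whole-transcript arrays, with 3 arrays per genotype. The genotypes were IL10-/- STING-/- (DKO), IL10-/- STING+/+ (IL10KO), IL10+/+ STING-/- (SKO) and IL10+/+ STING+/+ (WT). Interleukin-10 damps immune responses in the gut, and its loss in mice is a common colitis model. STING is an adaptor protein of the innate immune response to cytosolic DNA. The sources used here do not give age, strain, the segment of colon sampled or how either gene was disrupted. Nor do the labels state that the 3 arrays of a genotype are separate animals. The p-values therefore measure the spread between these samples, which may be technical.

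Enteroendocrine cells release peptide hormones and amines from granules when they sense nutrients, microbial products or irritants. L cells, the main type of the distal gut, make proglucagon products, peptide YY and, in the colon, insulin-like peptide 5, and enterochromaffin cells make serotonin. Tuft cells detect luminal metabolites through a taste-like cascade and depend on the transcription factor Pou2f3. In the small intestine they answer parasites with interleukin-25 and are expanded by interleukin-13. In tissue as a whole, fewer cells of a type and less RNA per cell cannot be told apart.

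Values are log2 signals as deposited, differences are log2 differences with their standard error (SE), and a gene passed where limma's moderated test gave an adjusted p under 0.05. Sting1 read 4.13 to 4.34 in DKO, 6.87 to 8.09 in IL10KO, 4.28 to 4.40 in SKO and 7.51, 6.40 and 4.56 in WT. The 4.56 of the library labelled WT replicate 3 lay near the range of the STING-/- arrays. Il10 was dim, at 4.33 to 4.60 in DKO, 4.59 to 5.47 in IL10KO, 3.65 to 3.82 in SKO and 3.59 to 3.80 in WT. The sources used here do not say whether its probe set lies in the deleted part, and its signal does not check the labels. For 15 pancreatic acinar genes WT replicates 1 and 2 had mean signals of 8.22 and 10.81, and the other 10 arrays 4.76 to 5.51. Leaving out both leaves the library labelled WT replicate 3 as the only WT array. The mean signal of 24 genes of stratified squamous epithelium was 6.67 and 6.81 in IL10KO replicates 2 and 3 and 5.28 in replicate 1. It was between 4.56 and 5.35 in DKO, 4.55 and 4.79 in SKO and 4.54 and 4.62 in WT. The mean signal of the general colon epithelium markers (20 genes, among them Epcam and Vil1) lay between 10.30 and 10.47 in all 12 arrays.

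The IL10KO colon had lower signals of Insl5, Tph1 and Chga than the WT colon. The DKO colon had higher signals of Insl5, Tph1 and Gcg than the IL10KO colon. These calls were not equally firm. Of 24 alternatives Insl5 kept both calls in 24, Tph1 in 22 and 21, Gcg its call in 17 and Chga in 11. None of the 10 genes passed between DKO and SKO, SKO and WT or DKO and WT. The tuft cell genes did not pass in any comparison. Of the 10 genes, 3 fell and none rose in IL10KO against WT, where 8.14% of all genes passed in either direction, 5.01% lower and 3.12% higher. Between DKO and IL10KO 3 rose and none fell, where 5.79% of all genes passed, 3.34% higher and 2.45% lower. The median difference of the 10 genes was -0.41 in IL10KO against WT, beside 0.03 for all genes, and 0.64 in DKO against IL10KO, beside -0.04 for all genes. These comparisons share the IL10KO arrays, so a change of those arrays alone moves both. The 10 genes were chosen with earlier results of these data known, so the shares and medians set beside all genes are a description only.

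**Figure D1:**
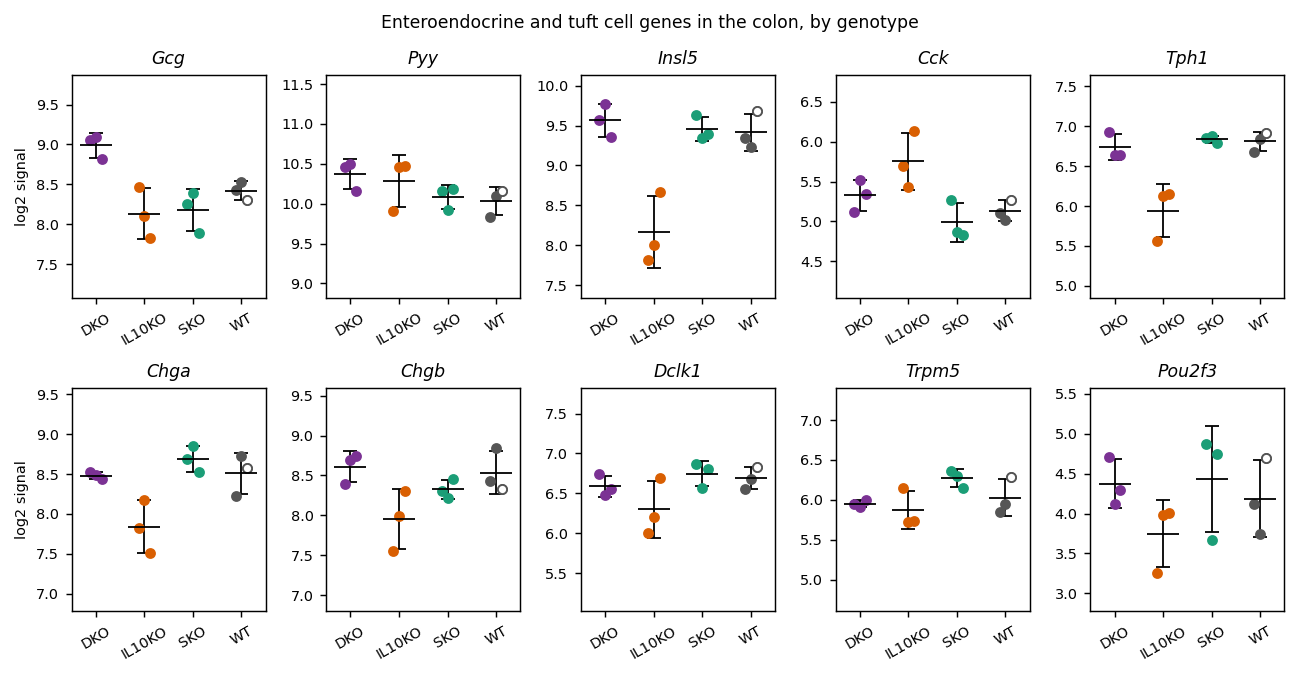
Log2 signal of each of the 10 genes (vertical axis, the same span in every panel) in the 3 arrays of DKO, IL10KO, SKO and WT (horizontal axis). Points are arrays, bars are the mean and SD, and the open circle is the library labelled WT replicate 3. The 3 IL10KO points of Insl5 and Tph1 lie below all points of the other genotypes, and the 3 DKO points of Gcg lie above all others.

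Insl5 encodes insulin-like peptide 5, a hormone of L cells of the distal colon that acts on the receptor Rxfp4. Its signal was 9.57, 9.77 and 9.36 in DKO, 7.81, 8.0 and 8.67 in IL10KO, 9.63, 9.35 and 9.40 in SKO, and 9.34, 9.23 and 9.68 in WT. Every IL10KO array lay below every array of the other genotypes. The mean was 8.16 ± 0.45 in IL10KO and 9.42 ± 0.23 in WT (SD, n = 3 each), a difference of -1.25 ± 0.21 (SE, limma adjusted p = 0.00328), which is lower by a factor of 2.38. In DKO the mean was 9.56 ± 0.20, and the difference from IL10KO was 1.4 ± 0.21 (limma adjusted p = 0.00202), higher by a factor of 2.64. Both calls held under each of the 12 omissions of 1 array, with limma adjusted p up to 0.0163 in IL10KO against WT and 0.0147 in DKO against IL10KO. The receptor gene Rxfp4 was dim, with 4.83, 4.28 and 4.13 in IL10KO and 4.36, 4.17 and 4.08 in WT, and did not pass.

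Gcg encodes proglucagon, which L cells cut into glucagon-like peptides 1 and 2. Its signal was 9.06, 9.10 and 8.81 in DKO, 8.47, 8.10 and 7.83 in IL10KO, 8.25, 8.39 and 7.89 in SKO, and 8.43, 8.53 and 8.30 in WT. The DKO arrays lay above all others, while the IL10KO arrays overlapped both those of SKO and those of WT. Gcg averaged 8.99 ± 0.15 in DKO and 8.13 ± 0.32 in IL10KO (SD, n = 3 each), a difference of 0.86 ± 0.18 (SE, limma adjusted p = 0.0143). The call ended without IL10KO replicate 3 (0.70, limma adjusted p = 0.0527), DKO replicate 1 (0.82, 0.0672) or DKO replicate 2 (0.80, 0.0676). It also ended with quantile normalization (0.71, limma adjusted p = 0.0699) and only the genotypes compared (0.86, 0.0526). Of 24 alternatives 17 kept it. Without IL10KO replicates 2 and 3, those with squamous signal, the difference was 0.52 (limma adjusted p = 0.121). In IL10KO against WT the difference was -0.29 (95% interval -0.67 to 0.10, limma adjusted p = 0.326).

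Gcg was also the member with the largest differences between DKO and the genotypes with intact Il10. The difference was 0.81 ± 0.18 from SKO (unadjusted p = 0.000499 in limma's fit, adjusted p = 0.245) and 0.57 ± 0.18 from WT (unadjusted p = 0.00677, adjusted p = 1), and neither passed. Islets of the pancreas also make proglucagon, so their markers were set beside it. The mean signal of 10 islet markers was 4.69 to 4.79 in DKO, 4.75 to 4.91 in IL10KO, 4.73 to 5.04 in SKO and 4.69 to 4.85 in WT. The insulin gene Ins2 lay between 2.68 and 3.05 in DKO, 2.96 and 3.49 in IL10KO, 2.79 and 3.32 in SKO and 2.98 and 3.14 in WT. Of the 10 islet markers Ttr, the transthyretin gene, rose in DKO against IL10KO by 0.75 (limma adjusted p = 0.0414), as Gcg did. Ttr also fell in IL10KO against WT by 0.78 (limma adjusted p = 0.0289), where Gcg did not pass. The other 9 did not pass in either comparison, among them Ppy (0.63 in DKO against IL10KO, limma adjusted p = 0.0841) and Ins2 (-0.39, 0.176). Their part in the values of Gcg was not tested.

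Pyy, the gene of peptide YY, which slows gut transit and appetite, did not follow Insl5. Its signal was 10.46, 10.50 and 10.16 in DKO, 9.91, 10.46 and 10.48 in IL10KO, 10.16, 9.92 and 10.19 in SKO, and 9.83, 10.10 and 10.17 in WT. The genotypes overlapped, and the range over all 12 arrays was 0.66, against 1.96 for Insl5. The difference was 0.25 in IL10KO against WT (95% interval -0.13 to 0.62, limma adjusted p = 0.383) and 0.09 in DKO against IL10KO (-0.29 to 0.46, limma adjusted p = 0.779). Of these L cell hormone genes Insl5 fell in IL10KO against WT, and the intervals of Gcg and Pyy both span 0. Whether the genes differ from each other in their response was not tested.

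Tph1 encodes tryptophan hydroxylase 1, the rate-limiting enzyme of serotonin synthesis in enterochromaffin cells. Its signal was 6.93, 6.64 and 6.65 in DKO, 5.56, 6.12 and 6.15 in IL10KO, 6.86, 6.87 and 6.79 in SKO, and 6.68, 6.83 and 6.92 in WT. As with Insl5, all 3 IL10KO arrays were lower than every other array. The mean was 5.94 ± 0.33 in IL10KO and 6.81 ± 0.12 in WT (SD, n = 3 each), a difference of -0.87 ± 0.16 (SE, limma adjusted p = 0.00624), lower by a factor of 1.83. In DKO it was 6.74 ± 0.16, higher than in IL10KO by 0.79 ± 0.16 (limma adjusted p = 0.0126). That second call ended without DKO replicate 1 (0.70, limma adjusted p = 0.0696), and the first held under each single omission. The first ended without both WT arrays that carry acinar signal, where the difference was -0.98. WT then rests on the library labelled WT replicate 3 alone, whose Sting1 signal lay near the STING-/- range.

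The next enzyme of the pathway moved the same way. Ddc, aromatic amino acid decarboxylase, which makes serotonin from the product of Tph1 and is also found in other cells of the gut, read 8.52, 8.28 and 8.46 in DKO, 7.46, 7.41 and 7.43 in IL10KO, 8.44, 8.35 and 8.81 in SKO, and 8.59, 8.43 and 8.52 in WT. It fell in IL10KO against WT by 1.08 (limma adjusted p = 0.000596) and rose in DKO against IL10KO by 0.99 (limma adjusted p = 0.00151). The vesicular monoamine transporters that load serotonin into granules, Slc18a1 (-0.20 in IL10KO against WT, limma adjusted p = 0.439) and Slc18a2 (-0.48, limma adjusted p = 0.127), did not pass. Mast cells can express Tph1 too. The mean signal of 12 mast cell markers was 3.79 to 4.12 in DKO, 4.25 to 4.43 in IL10KO, 3.98 to 4.14 in SKO and 4.04 to 5.36 in WT. Of these markers Kit, a receptor also carried by interstitial cells of Cajal, fell in IL10KO against WT by 0.89 (limma adjusted p = 0.00373) and rose in DKO against IL10KO by 0.75 (limma adjusted p = 0.0122). The histamine-forming enzyme Hdc rose in IL10KO against WT by 1.65 (limma adjusted p = 0.00165), and its difference in DKO against IL10KO was -1.69 (limma adjusted p = 0.00175). The other 10 did not pass in either comparison, and the part of mast cells in the values of Tph1 was not tested.

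The members that passed in at least 1 comparison are shown with the 250 bases before a RefSeq transcription start, since they are the ones whose signals differed between genotypes. Capitals mark the letters TATAAA, the core of a TATA box, on either strand. RefSeq (GRCm38.p6) lists 2 starts for Insl5 and Tph1, and the one farther along the gene is printed.
Insl5 (chr4:103026729-103026978, minus strand): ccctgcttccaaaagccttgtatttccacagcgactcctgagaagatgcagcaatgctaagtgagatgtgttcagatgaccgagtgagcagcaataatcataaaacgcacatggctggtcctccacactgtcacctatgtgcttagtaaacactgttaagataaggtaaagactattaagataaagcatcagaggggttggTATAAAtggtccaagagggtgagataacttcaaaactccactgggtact
Tph1 (chr7:46667378-46667627, minus strand): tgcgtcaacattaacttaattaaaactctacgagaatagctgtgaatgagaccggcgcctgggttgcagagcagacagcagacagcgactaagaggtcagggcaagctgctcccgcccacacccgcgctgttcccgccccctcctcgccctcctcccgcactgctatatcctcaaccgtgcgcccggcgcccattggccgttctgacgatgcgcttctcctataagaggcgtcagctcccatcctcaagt
Gcg (chr2:62483654-62483903, minus strand): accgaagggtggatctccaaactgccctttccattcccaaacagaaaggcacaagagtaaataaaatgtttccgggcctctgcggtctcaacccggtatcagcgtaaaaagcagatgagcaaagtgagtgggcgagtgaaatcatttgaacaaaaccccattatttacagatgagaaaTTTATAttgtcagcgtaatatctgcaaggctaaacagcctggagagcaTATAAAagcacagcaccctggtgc
Chga (chr12:102554691-102554940, plus strand): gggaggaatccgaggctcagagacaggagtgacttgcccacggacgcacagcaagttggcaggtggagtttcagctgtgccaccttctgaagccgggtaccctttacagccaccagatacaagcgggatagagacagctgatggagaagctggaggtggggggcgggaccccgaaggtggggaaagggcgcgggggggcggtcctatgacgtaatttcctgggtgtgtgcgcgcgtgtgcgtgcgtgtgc
TATAAA occurred once in the printed Insl5 window, in 2 places in the Gcg window and in neither of the other printed windows. Over the 9 members with an entry it was in 3 of 13 windows, and in 12.4% of 32851 windows of the same length over all genes. The E-box letters CANNTG, the kind of core that enteroendocrine factors such as Neurod1 can bind, were in 10 of 13 member windows and in 66.2% of all windows. The cyclic AMP response element TGACGTCA was in the Chgb window alone, against 1.55% of all windows, and the octamer ATGCAAAT, which POU factors can bind, was in 0 of 13, against 1.6%. Both strands were searched and the motifs can overlap.

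Chga and Chgb encode the granins chromogranin A and B, acidic proteins packed in the granules of most enteroendocrine cells and of many neurons. Chga read 8.52, 8.48 and 8.44 in DKO, 7.83, 8.18 and 7.51 in IL10KO, 8.69, 8.86 and 8.53 in SKO, and 8.23, 8.73 and 8.57 in WT. The IL10KO arrays were the lowest, but the highest of them lay only just under WT replicate 1. Chga averaged 7.84 ± 0.33 in IL10KO and 8.51 ± 0.25 in WT (SD, n = 3 each), a difference of -0.67 ± 0.18 (SE, limma adjusted p = 0.0346). The call ended in 6 of the 12 single omissions, those of IL10KO replicates 1 and 3, DKO replicate 2, WT replicate 2, the library labelled WT replicate 3 and SKO replicate 1, with limma adjusted p up to 0.134. It also ended with quantile normalization (-0.52, limma adjusted p = 0.116), epithelial marker centring (-0.61, 0.0665) and only the genotypes compared (-0.67, 0.108). Of 24 alternatives 11 kept it. In DKO against IL10KO its difference of 0.64 ± 0.18 lay on the threshold and did not pass (limma adjusted p = 0.05004), and it passed without IL10KO replicate 2, WT replicate 1 or SKO replicate 2.

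Chgb read 8.39, 8.69 and 8.75 in DKO, 7.56, 7.99 and 8.30 in IL10KO, 8.30, 8.21 and 8.46 in SKO, and 8.44, 8.84 and 8.34 in WT. IL10KO replicate 3 lay within the SKO range, and all 3 IL10KO arrays lay below DKO and WT. The difference was -0.59 ± 0.19 in IL10KO against WT (limma adjusted p = 0.0765) and 0.66 ± 0.19 in DKO against IL10KO (limma adjusted p = 0.0608), so Chgb did not pass. Without IL10KO replicate 3 it passed in both, with -0.76 (limma adjusted p = 0.0426) and 0.83 (0.0342).

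Enteric neurons also carry granins, so their markers were set beside Chga and Chgb. Of 18 measured neuron markers 9 fell in IL10KO against WT (median -0.64) with no rise, and 5 rose in DKO against IL10KO (median 0.54) with no fall. The synaptic vesicle genes Snap25 (-1.37 in IL10KO against WT, 1.34 in DKO against IL10KO) and Syt1 (-1.04 and 0.97) were among them, as was the neuronal tubulin regulator Stmn2 (-0.99 and 0.91). The mean signal of the list was 5.75 to 6.02 in DKO, 5.27 to 5.44 in IL10KO, 5.93 to 6.05 in SKO and 5.79 to 6.04 in WT. The 9 neuron markers lower in IL10KO than in WT became 5 without any 1 of IL10KO replicate 1, WT replicate 2 and the library labelled WT replicate 3. Fewer still passed without both WT arrays with acinar signal, where that library is the only WT array (median -0.66). The 5 higher in DKO than in IL10KO became 3 without any 1 of the 3 DKO arrays or with arrays centred on epithelial markers. Of the smooth muscle markers, 11 of 13 fell in IL10KO against WT (median -0.79) and 11 of 13 rose in DKO against IL10KO (median 0.84). Without DKO replicate 1 the rise in DKO passed for 7 of these. Without both WT arrays with acinar signal, which leaves only the library labelled WT replicate 3, the fall in IL10KO passed for fewer (median -0.93). Of the 20 colon epithelium markers, the tight junction gene Cldn4 rose in IL10KO against WT and the other 19 did not pass. In that comparison 15 of the 20 lay below 0 (median -0.15). In DKO against IL10KO the difference of Cldn4 was -1.15 (limma adjusted p = 0.0249) and the other 19 did not pass. There 15 of the 20 lay above 0 (median 0.18). Of all genes 5.01% passed lower in IL10KO against WT and 3.34% higher in DKO against IL10KO. The part of neurons and muscle in the values of Chga, Chgb and the other members was not tested.

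**Figure D2:**
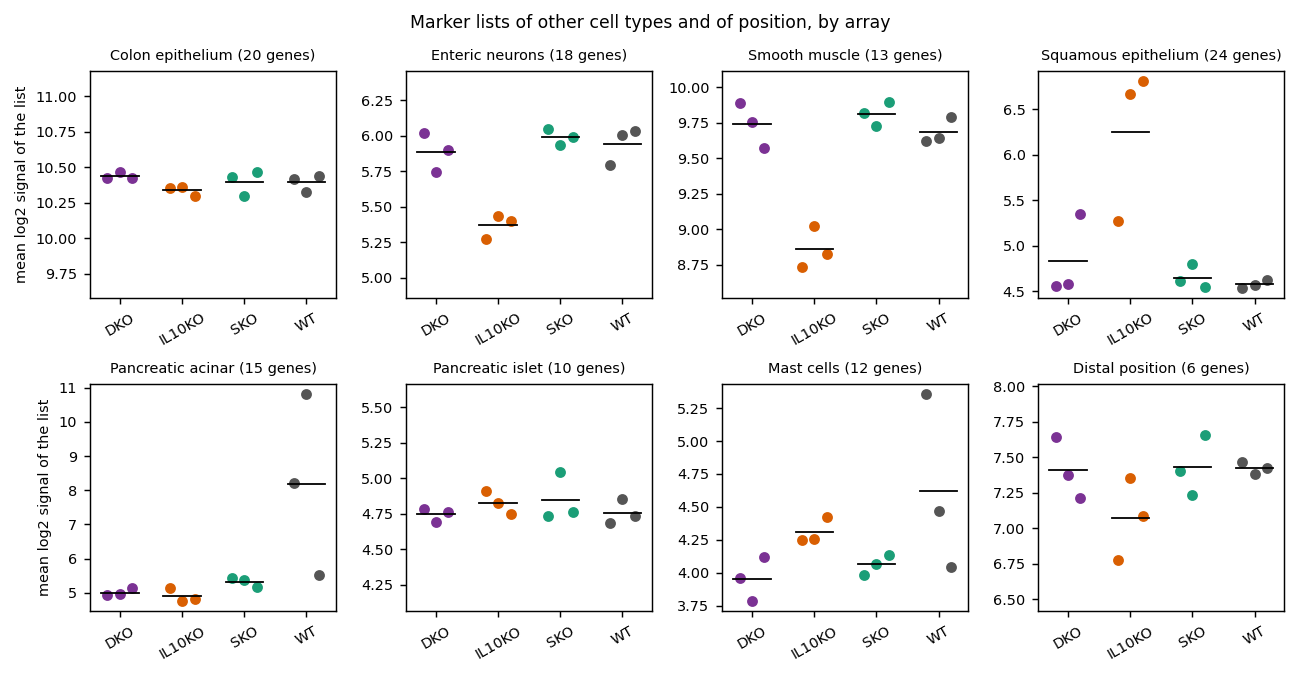
Mean log2 signal (vertical axis) of marker lists of other cell types and of position along the colon, in the 3 arrays of each genotype (horizontal axis); points are arrays and lines are genotype means. The neuron and smooth muscle means of IL10KO lie below those of DKO, SKO and WT, the epithelium means lie between 10.30 and 10.47, and the acinar mean is high in WT replicates 1 and 2.

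Cck encodes cholecystokinin, the hormone of I cells, which release it mainly in the upper small intestine, and of neurons. Its signal was 5.12, 5.51 and 5.34 in DKO, 5.69, 5.43 and 6.14 in IL10KO, 5.27, 4.87 and 4.83 in SKO, and 5.11, 5.02 and 5.27 in WT. Cck was dim, with a WT mean of 5.13, under the median gene signal of every array (5.47 to 5.57). Its 3 IL10KO arrays all lay above WT, as for 14.0% of all genes, and no other member's did. The test of this difference, 0.62 ± 0.19, gave a limma adjusted p of 0.0579 (95% interval 0.22 to 1.02). It passed without IL10KO replicate 2 (0.78, limma adjusted p = 0.0202). Between DKO and IL10KO its difference was -0.43 (limma adjusted p = 0.180). In the other direction Chga, Chgb, Insl5 and Tph1 had all 3 IL10KO arrays below WT, 4 of 10 genes where 16.0% of all genes did so, and 6 of the 10 had all 3 DKO arrays above IL10KO, where 13.4% of all genes did so. No member had all 3 DKO arrays below IL10KO, as 13.8% of all genes had. With the 10 genes chosen after earlier results of these data were known, these shares describe them and test nothing.

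**Figure D3:**
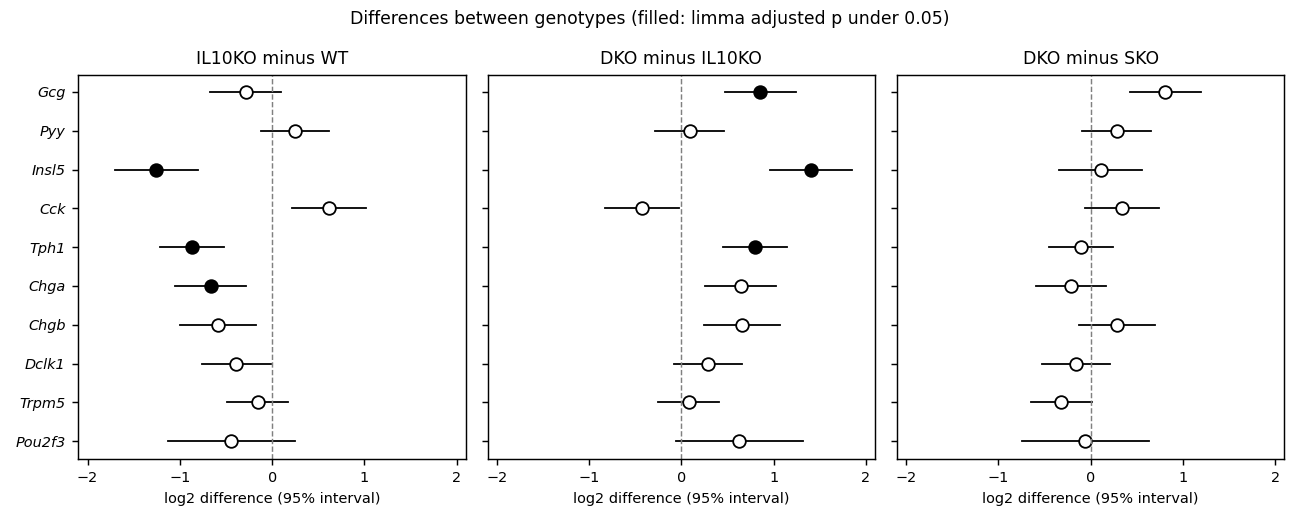
Log2 differences of the 10 genes (horizontal axis, with 95% intervals of limma's fit) in IL10KO minus WT, DKO minus IL10KO and DKO minus SKO; filled points have a limma adjusted p under 0.05. Insl5, Tph1 and Chga are filled on the negative side in the first panel, Insl5, Tph1 and Gcg on the positive side in the second, and no point is filled in the third.

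No tuft cell gene of the 10 passed in any comparison. Dclk1, a microtubule-associated kinase used to mark tuft cells and also present in neurons, read 6.74, 6.48 and 6.55 in DKO, 6.01, 6.20 and 6.70 in IL10KO, 6.87, 6.57 and 6.80 in SKO, and 6.56, 6.67 and 6.83 in WT. IL10KO replicate 3 lay within the WT range and the other IL10KO arrays below it. With a difference of -0.39 ± 0.17 its limma adjusted p was 0.172, and leaving out IL10KO replicate 3 gave -0.58 (limma adjusted p = 0.0482).

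Trpm5, the cation channel that depolarises tuft cells at the end of the taste-like cascade, read 5.95, 5.91 and 6.0 in DKO, 6.15, 5.73 and 5.73 in IL10KO, 6.37, 6.30 and 6.15 in SKO, and 5.85, 5.95 and 6.29 in WT. Its largest difference was -0.32 in DKO against SKO (95% interval -0.65 to 0.01, limma adjusted p = 0.998), where the groups did not overlap. Trpm5 and Chga had all 3 DKO arrays below SKO, as had 6.28% of all genes, and Gcg had them above, as had 4.87%. Pou2f3, the transcription factor without which tuft cells do not form, was dim, with 4.71, 4.12 and 4.29 in DKO, 3.26, 3.98 and 4.0 in IL10KO, 4.88, 3.67 and 4.75 in SKO, and 4.12, 3.74 and 4.70 in WT. The genotypes overlapped other than DKO and IL10KO, and the interval of IL10KO minus WT ran from -1.13 to 0.25 (limma adjusted p = 0.403). Keratinocytes express Pou2f3 as well. Within IL10KO it read 3.98 and 4.0 in the replicates with the higher squamous signal, 2 and 3, and 3.26 in replicate 1. Over all arrays its highest signals, 4.88 and 4.75, were in SKO replicates 1 and 3, whose squamous means were 4.61 and 4.55. The part of squamous tissue in the values of Pou2f3 was not tested.

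Without Il10, DKO and IL10KO differ in STING, and whether the effect of Il10 loss depends on STING was tested as (DKO minus SKO) minus (IL10KO minus WT). No member passed by limma, where 0.645% of all genes did. At an unadjusted p under 0.05 there were 4 members, beside 3480 of all genes. The differences of effects were 1.36 ± 0.29 for Insl5 (SE, limma adjusted p = 0.0578), 1.10 ± 0.25 for Gcg (0.0715), 0.77 ± 0.23 for Tph1 (0.160) and 0.87 ± 0.27 for Chgb (0.177). Insl5 passed without IL10KO replicate 3 (1.61, limma adjusted p = 0.0112), and Gcg passed without IL10KO replicate 1 (1.27, limma adjusted p = 0.0170). In 11 of 12 single omissions each of them did not pass, with limma adjusted p up to 0.162 for Insl5 and 0.185 for Gcg. For Pyy the interval was -0.49 to 0.56.

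With STING absent, loss of Il10 left the 10 genes between -0.32 and 0.81 (DKO against SKO), and none passed by limma, where 0.0451% of all genes did. Of the members Gcg had an unadjusted p under 0.05, as had 1059 of all genes. For Insl5 the interval of DKO minus SKO was -0.34 to 0.55 and for Tph1 it was -0.45 to 0.25. Loss of STING with Il10 intact (SKO against WT) gave differences between -0.24 and 0.24. No gene of the array passed there (0.0%), and 0 members and 454 genes had an unadjusted p under 0.05. In DKO against WT the differences lay between -0.10 and 0.57 and no member passed, where 0.0451% of all genes did. At an unadjusted p under 0.05 there were 1 member, Gcg, and 648 genes. Both comparisons with WT include the library labelled WT replicate 3. So do IL10KO against WT and the test of the difference of the Il10 effect.

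Other genes of the enteroendocrine programme were read from lists chosen by function, with earlier results of these data known. Of 12 transcription factors 2 fell in IL10KO against WT with no rise, Foxa2 (-0.54) and Etv1 (-0.66), and the progenitor factor Neurog3 (-0.13) and its target Neurod1 (-0.02) did not pass. Of 15 hormone and amine genes, Nmu, which encodes neuromedin U, fell by 1.36 and Ddc fell as given above, while Nts, the gene of neurotensin, rose by 0.77 from a dim level. Somatostatin (Sst) did not pass (-0.47, limma adjusted p = 0.330), and its WT signals were 7.97, 8.02 and 9.40, the highest in the library labelled WT replicate 3. Of 17 granule and processing genes the granin Scg2 (-0.72) and the carboxypeptidase Cpe (-0.65), both also neuronal, fell and none rose. Of 20 receptors the incretin receptor Glp1r (-1.33), the glucagon-like peptide 2 receptor Glp2r (-1.12) and the peptide YY and neuropeptide Y receptor Npy1r (-1.09) fell and none rose. Glp1r read 5.75, 6.92 and 5.74 in the WT arrays, highest in WT replicate 2, and leaving that array out gave a difference of -0.94 (limma adjusted p = 0.0376). These lists are not specific to enteroendocrine cells. Of all genes 5.01% passed lower in IL10KO against WT and 3.12% higher. In the same comparison 9 of 18 neuron markers and 11 of 13 smooth muscle markers fell. The part of neurons and muscle in the values of these genes was not tested.

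In DKO against IL10KO, Foxa2 (0.66), Nmu (1.01), Ddc (0.99), Scg2 (0.64), Cpe (0.84) and Glp2r (0.79) rose and Nts fell by 0.59. The remaining genes of those lists did not pass. Of all genes 3.34% passed higher there and 2.45% lower. The list medians were small in IL10KO against WT, at 0.06 for transcription factors, -0.20 for hormones, -0.17 for granule genes and -0.11 for receptors, beside 0.03 for all genes. Nmu and Ddc were called in both comparisons under each of the 12 single omissions. The call of Foxa2 in IL10KO against WT remained in 3 of the 12, that of Etv1 in 6, that of Cpe in 6, that of Npy1r in 7, that of Scg2 in 9 and that of Glp1r in 11, with limma adjusted p up to 0.158. Between DKO and IL10KO the call of Scg2 remained in 2 of 12, that of Nts in 6, that of Foxa2 in 7 and that of Glp2r in 11, with limma adjusted p up to 0.132.

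Tuft cell genes outside the 10 were read in the same way, from lists that are not specific to tuft cells. Of 15 chemosensory signalling genes Gnat3, the taste G protein gustducin, fell in IL10KO against WT by 0.94 (limma adjusted p = 0.0174) and none rose, and none passed in DKO against IL10KO. The call of Gnat3 ended without the library labelled WT replicate 3 (-0.74, limma adjusted p = 0.0746) or IL10KO replicate 1 (-0.82, 0.0582). Of 33 other tuft cell markers the phosphatase gene Inpp5j (-1.09) and the prostaglandin D synthase Hpgds (-0.83) fell, and the interleukin-4 receptor chain Il4ra (1.11) and the leukotriene gene Alox5ap (0.91), both also expressed by leukocytes, rose. The DKO arrays had Inpp5j higher than IL10KO by 0.98, and Il4ra (-0.96) and Alox5ap (-1.06) fell. Of all genes 5.01% passed lower and 3.12% higher in IL10KO against WT. In DKO against IL10KO 3.34% of all genes passed higher and 2.45% lower. Beside these shares the few calls among tuft cell genes are a description only. The calls of Inpp5j and Il4ra held under each single omission, and those of Hpgds and Alox5ap in IL10KO against WT remained in 3 of 12 each, with limma adjusted p up to 0.162. The call of Alox5ap in DKO against IL10KO remained in 7 of 12, with limma adjusted p up to 0.112. The alarmin Il25, which tuft cells release, read 6.06, 5.51 and 4.91 in IL10KO and 5.14, 5.31 and 5.10 in WT and did not pass (limma adjusted p = 0.454).

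**Figure D4:**
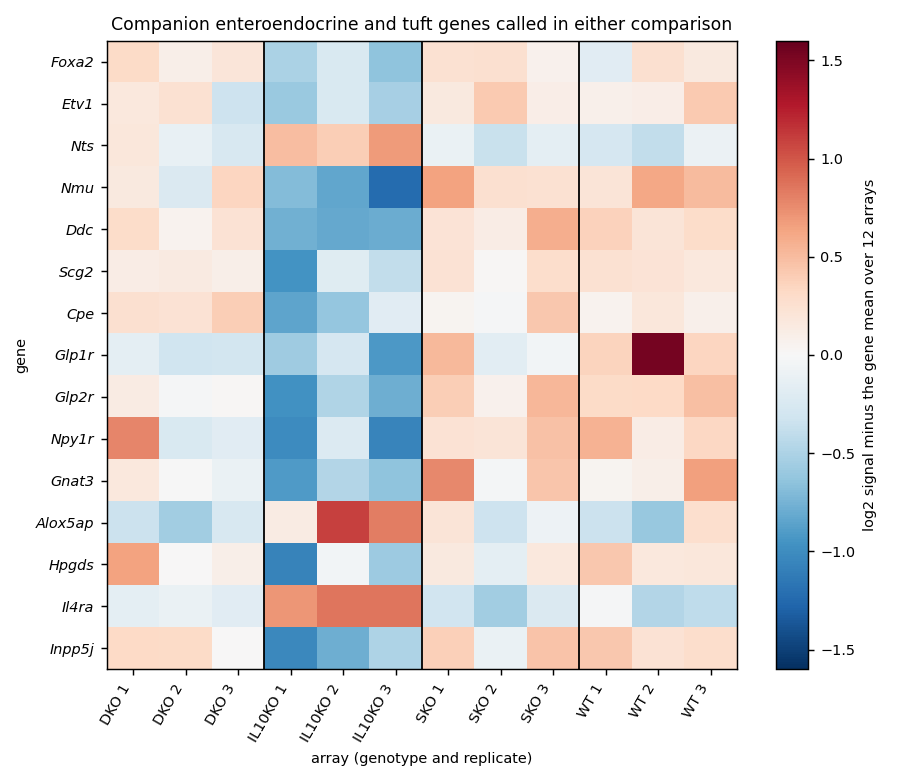
Log2 signal minus the gene's mean over the 12 arrays (colour) for the 15 enteroendocrine and tuft genes outside the 10 that passed in IL10KO against WT or DKO against IL10KO (rows), by array (columns, in the order DKO, IL10KO, SKO, WT). Most genes have their lowest genotype mean in IL10KO, while Nts, Alox5ap and Il4ra have their highest there.

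Of 9 genes of the type 2 cytokine circuit, which expands tuft cells in the small intestine, Arg1 (2.38), which macrophages also express, and the alarmin Il33 (1.20) rose in IL10KO against WT, and in DKO against IL10KO Arg1 fell by 2.03. Il13 read 4.70, 4.59 and 3.97 in IL10KO and 4.50, 4.66 and 4.58 in WT and did not pass. The call of Il33 ended without IL10KO replicate 3 (0.99, limma adjusted p = 0.0752) or WT replicate 2 (1.11, 0.0767). In IL10KO against WT 3.12% of all genes passed higher and 5.01% lower. Of 6 genes of distal position Hoxb13 fell in IL10KO against WT by 0.58, with 7.32, 7.65 and 7.57 in IL10KO and 8.08, 8.20 and 8.0 in WT. All 6 lay below 0 in IL10KO against WT (median -0.36) and above 0 in DKO against IL10KO (median 0.28), where none passed. The list mean was 7.21 to 7.65 in DKO, 6.77 to 7.35 in IL10KO, 7.24 to 7.66 in SKO and 7.38 to 7.47 in WT. Insl5 is a hormone of the distal colon, and the part of sampling position in its values was not tested.

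Likeness of profiles was measured as the root mean square difference over the 12 arrays between log2 profiles centred on their own means. No member had a range of 2 over the arrays, the condition set for naming neighbours, so the following genes are given for Insl5, Tph1 and Gcg, chosen after their values were seen. Nearest to Insl5 were Ogn (0.20), the mucus protein gene Clca1 (0.21) and the muscle filament gene Des (0.22). Nearest to Tph1 were Gid4 (0.087), Gpd1l (0.091) and Eml1 (0.097). Nearest to Gcg was the glycosyltransferase gene B4galnt2 (0.15). Among the 10 genes the closest pair was Chga and Tph1 (0.23), while Insl5 and Tph1 were 0.29 apart. The measure shares arrays and scale among all genes and is a description only.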

How the data were processed

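Colon RNA of 4 genotypes was read on 12 arrays, 3 per genotype. The deposited values are log2 signals per probe set, which per the submitters' processing notes came from Affymetrix Expression Console 1.3.1.187. That they are log2 rests on their range and on array medians of 4.80 to 5.02. Normalization, summary method and build were not given in the sources used here. There were no detection calls. The precision depends on the number of arrays, on each gene's spread and on the prior of the fit.

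Of 41345 probe sets 23521 had exactly 1 symbol in the platform annotation, 1814 several, and 16010 are unnamed here. Each gene's brightest probe set over all arrays was used, which gave 22180 genes without a filter on dim ones. All arrays entered 1 fit of genotype means (limma 3.58.1, R 4.3.3, 8 residual and 5.56 prior degrees of freedom). The 2-sided p-values were Benjamini-Hochberg adjusted over all genes of a comparison. The fit was tested on simulated data. Of 287 entries in 17 companion lists 261 were measured. The naming rule took the members, and per list and comparison up to 4 called genes with the largest difference. Other genes were named for their role after their values were seen. Members and lists were chosen with earlier results of these data known. Alternatives changed the normalization or centring, the genes or arrays kept, the prior, the array weights or the threshold. Upstream sequences came from RefSeq.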

Additional observations from a re-analysis of the deposited data

Results flagged for a closer look

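Ddc, the decarboxylase that follows Tph1 in serotonin synthesis, passed limma's test of whether the Il10 effect differed between the STING genotypes. It was the one gene to do so among the 10 and the companion enteroendocrine and tuft cell lists. Of all genes 0.645% passed this test, and so did genes of other companion lists, among them Hdc (limma adjusted p = 0.0357) and Synpo2 (0.0212). A single call among these lists is therefore a description only. For Ddc the effect in STING-deficient colon minus that in STING-intact colon was 0.97 ± 0.20 (SE, limma adjusted p = 0.0434). The difference of DKO minus SKO was -0.11, and that of IL10KO minus WT was -1.08. All 3 IL10KO arrays (7.41 to 7.46) lay below the other 9 (8.28 to 8.81). The call remained in 3 of the 12 omissions of 1 array, those of IL10KO replicates 1 and 2 and SKO replicate 3, and reached a limma adjusted p of 0.121 without WT replicate 1.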

How the results depend on the processing

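Insl5 kept its call and direction under all 24 alternatives, between -1.6 and -0.95 in IL10KO against WT and between 1.23 and 1.75 in DKO against IL10KO. Of 641 alternative values of members, 574 kept direction and side of the threshold, 25 lost a call, 32 gained one and 10 turned. Against the 3 called members of IL10KO against WT, 1 passed with the 2-fold threshold or without both WT arrays with acinar signal, and single omissions gave 2 to 4. Against the 3 of DKO against IL10KO, 5 passed without the dimmest 33% of genes or with the trended and robust prior and 1 with only the genotypes compared or the 2-fold threshold, and single omissions gave 1 to 4. In DKO against SKO 2 passed with array weights (Gcg and Trpm5), whose estimation stopped before full convergence. For the difference of the Il10 effect 1 passed with median centring or without the dimmest genes, 2 with the trended and robust prior or array weights, and 3 without both IL10KO arrays with squamous signal. A joint omission of IL10KO replicate 1, SKO replicate 2 and the library labelled WT replicate 3, which was added after seeing the data, gave 1. Single omissions gave 0 to 1 there. No call turned. Among differences that did not pass, these turned in IL10KO against WT without both squamous arrays: Gcg (0.052), Pyy (-0.13) and Trpm5 (0.12). Pou2f3 turned with the joint omission (0.058) and lay between -0.66 and -0.19 over omissions of 1 array and at -0.95 without both WT arrays with acinar signal. In DKO against IL10KO Pyy turned with quantile normalization (-0.010), epithelial centring (-0.012), the omission of IL10KO replicate 1 (-0.099) and the joint omission (-0.099), with a highest value of 0.19 over omissions of 1 array and 0.46 without both squamous arrays. Trpm5 turned with epithelial centring (-0.019) and without both squamous arrays (-0.20). The causes were not tested, beyond the fewer genes or arrays that some alternatives hold. With 1 array left in a genotype, that array is assumed to vary like the other genotypes. Without both WT arrays with acinar signal, WT holds the library labelled WT replicate 3 alone. Without both squamous arrays, IL10KO holds replicate 1 alone. No paired analysis was possible because the labels give no replicate numbers shared between genotypes.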
